A study of Mus musculus with 2 samples.

Results

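Igfbp7-expressing T cells were examined in 2 single-cell RNA sequencing libraries of regulatory T cells (Tregs) sorted from mouse tumours. A barcode was retained with 500 or more genes detected and less than 10% of its UMIs (unique molecular identifiers, 1 per captured transcript) from mitochondrial genes. A retained cell was a member under the following conditions. It needed at least 2 UMIs of Igfbp7 and at least 2 UMIs of the CD3 genes Cd3d, Cd3e and Cd3g together. It could hold at most 1 UMI of the collagen genes Col1a1 and Col3a1, at most 1 of the CD8 genes Cd8a and Cd8b1, and at most 3 of the myeloid genes Lyz2, C1qa and C1qb. By this rule 231 of 7868 retained cells were members, 13 in the cKO library and 218 in the WT library. Without the Igfbp7 condition the rule gave 6393 T cells, and 5944 of them had no Igfbp7 UMI, 3029 in cKO and 2915 in WT. Those Igfbp7=0 cells of the same library are the comparison throughout.

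The cKO library came from C57BL/6 mice aged 8 to 12 weeks whose Tregs carried a conditional deletion of Jmjd1c, a member of the JmjC-domain family of histone lysine demethylases. The WT library came from C57BL/6 mice of the same age with an intact gene. After enzymatic digestion and a density gradient, Tregs were selected on magnetic beads and then sorted by a fluorescent signal before 10x Genomics 3′ library preparation. What kind of tumour was used, how many animals of which sex were pooled, which Cre line drove the deletion and which exons it removes are not stated in the labels. With 1 library per genotype there is no test between genotypes, and cells of 1 library are not replicates. Each interval given is a 95% interval for counting error only, exact Poisson for levels, exact conditional binomial for ratios and exact Clopper-Pearson for shares.

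Igfbp7 encodes a secreted protein related to the insulin-like growth factor binding proteins and is best known from vascular endothelium and stroma. Tmem176a and Tmem176b encode paired multi-pass membrane proteins related to the MS4A family, known from dendritic cells and from type 17 lymphocytes. Trdc encodes the constant region of the T cell receptor delta chain and marks gamma-delta T cells, whereas Trac, Trbc1 and Trbc2 encode the constant regions of the alpha and beta chains that Tregs use.

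The 13 cKO members had a median of 10320 UMIs per cell and the 218 WT members 12882, against 6238 in cKO Igfbp7=0 cells and 8115 in WT Igfbp7=0 cells. A minimum of 2 UMIs selects deeply sequenced cells, so ratios are also given against Igfbp7=0 cells matched on depth, taking for each member the 10 nearest in total UMIs with reuse. The libraries held 37666195 UMIs in cKO and 49063944 in WT, with 4026 and 3842 retained barcodes, and 2 barcode sequences occurred in both. Jmjd1c, read from its 3′ end, was at 52.2 CPM (counts scaled to a total of 1e6 UMIs over the summed cells) in cKO members and 74.6 in WT members, and at 75.1 CPM in cKO Igfbp7=0 cells and 91.1 in WT ones; a 3′ read lying outside the deleted exons would not check the deletion. Y-linked transcripts were found in 13 of 13 cKO members and in no WT member, while Xist was found in 216 of 218 WT members and in no cKO member. The animals behind the libraries thus differed in sex as well as genotype, and the contributions of the 2 cannot be told apart in any difference between libraries.

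Members made up 0.425% of T cells in the cKO library (0.226 to 0.725%) and 6.54% in the WT library (5.73 to 7.44%). The level of Igfbp7 over all T cells was 3.57 CPM in cKO and 34.0 CPM in WT. After every cell had been thinned to 4000 UMIs, 0.792% of 2652 cKO T cells and 7.20% of 3208 WT T cells held an Igfbp7 UMI, so the gap between libraries was present at equal depth. It was not limited to CD8-negative cells, since 0.682% of thinned CD8 T cells held an Igfbp7 UMI in cKO and 7.96% in WT. In myeloid cells, taken as a measure of background from free RNA in droplets, 1 of 215 thinned barcodes held Igfbp7 in cKO (0.465%, 0.012 to 2.56%) and 0 of 46 in WT (0 to 7.71%). In both libraries the interval of the myeloid share holds the T cell share, so neither T cell share was distinguishable from background at this depth. By level over all UMIs, T cells were above myeloid cells by more than the counting error. In cKO, Igfbp7 was at 3.57 CPM in T cells (2.87 to 4.39) and 0.645 in myeloid cells (0.078 to 2.33). In WT it was at 34.0 CPM (32.2 to 35.9) and 1.16 (0.029 to 6.45). The myeloid levels rest on 2 UMIs in cKO and 1 in WT.

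**Figure D1:**
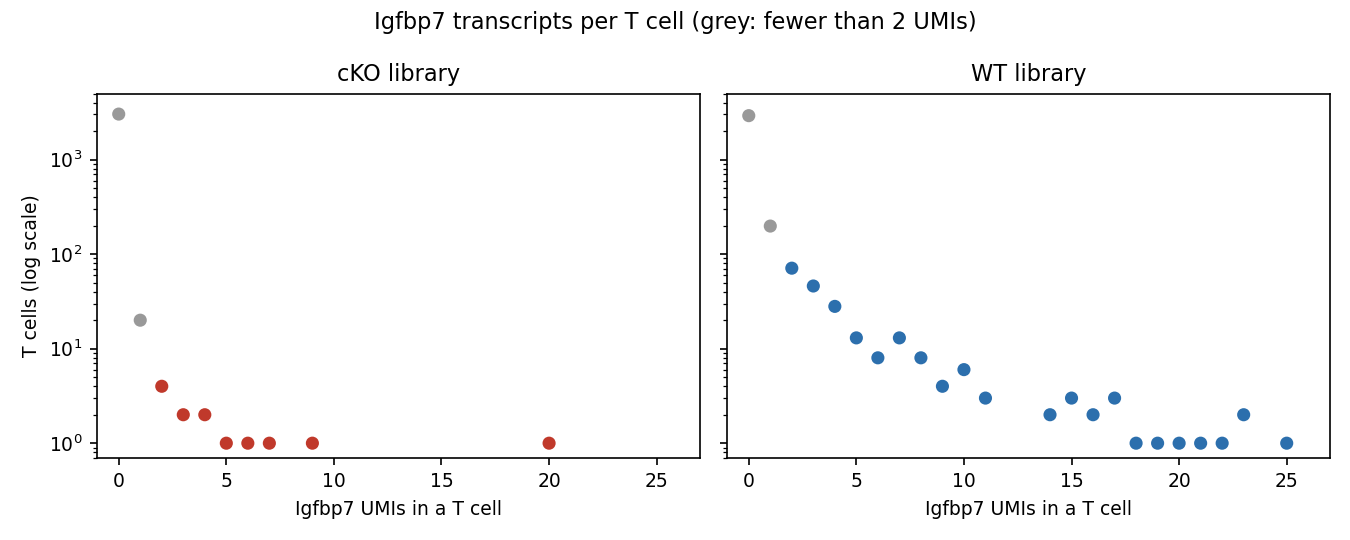
Number of T cells (log axis) at each count of Igfbp7 UMIs per cell, in the cKO library (left) and the WT library (right). Grey points are cells with fewer than 2 UMIs; the coloured members reach 20 UMIs in cKO and 25 UMIs in WT, and 13 cKO cells and 218 WT cells carry at least 2.

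Within the members the Igfbp7 count ran from 2 to 20 UMIs with a median of 4 in cKO, and from 2 to 25 with a median of 3 in WT. At least 5 UMIs were present in 5 cKO members and 73 WT members, and at least 10 in 1 cKO member and 27 WT members. Just inside the limit, 4 cKO and 71 WT members held exactly 2 UMIs, and just outside it 20 cKO and 198 WT T cells held exactly 1. WT cells with 2 UMIs had 127.9 CPM of Ltb4r1 and 39.9 CPM of Tmem176a, and WT cells with 1 UMI had 56.0 and 26.4 CPM of these genes, against 35.5 and 17.1 CPM at 0 UMIs. Of the other retained barcodes with at least 2 Igfbp7 UMIs, 8 in cKO and 38 in WT failed the rule, and 29 of the 38 in WT did so through CD8 transcripts.

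Promoter sequences of Igfbp7 and of Ccl1, Lgals7 and Tnfsf11, which were higher in members of both libraries, are shown so that these genes can be set side by side. They were chosen after the values had been seen. They are RefSeq windows of 300 bases on GRCm38.p6, from 250 bases before to 50 after the annotated start, 5′ to 3′ on the gene's own strand. Capitals mark matches on either strand to 2 of the 6 motifs searched, TATAAA, known as the TATA box, and GGAAAA, bound by NFAT factors. The others were TGANTCA for AP-1 factors, AGATAA for GATA factors, TGTGGT for RUNX factors and a kappaB motif; they had no match in these windows, and no matches overlap.
Igfbp7, chr5:77407996-77408295, minus strand: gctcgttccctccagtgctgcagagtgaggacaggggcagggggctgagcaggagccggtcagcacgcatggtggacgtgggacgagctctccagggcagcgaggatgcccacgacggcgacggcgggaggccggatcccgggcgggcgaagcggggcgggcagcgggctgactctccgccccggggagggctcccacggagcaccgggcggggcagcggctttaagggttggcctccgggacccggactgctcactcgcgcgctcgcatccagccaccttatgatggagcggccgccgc
Ccl1, chr11:82179763-82180062, minus strand: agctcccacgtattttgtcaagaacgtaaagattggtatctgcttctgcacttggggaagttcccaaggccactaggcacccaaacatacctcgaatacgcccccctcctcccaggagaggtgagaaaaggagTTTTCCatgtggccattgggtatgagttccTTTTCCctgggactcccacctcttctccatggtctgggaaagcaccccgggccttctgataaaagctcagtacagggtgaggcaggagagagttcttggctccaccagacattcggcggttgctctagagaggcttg
Lgals7, chr7:28864136-28864435, plus strand: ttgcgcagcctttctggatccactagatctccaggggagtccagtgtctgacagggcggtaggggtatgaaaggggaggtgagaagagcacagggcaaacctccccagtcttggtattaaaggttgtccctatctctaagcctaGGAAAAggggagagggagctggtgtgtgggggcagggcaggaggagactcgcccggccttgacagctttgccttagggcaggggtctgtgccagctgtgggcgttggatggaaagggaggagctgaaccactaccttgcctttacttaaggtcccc
Tnfsf11, chr14:78307994-78308293, minus strand: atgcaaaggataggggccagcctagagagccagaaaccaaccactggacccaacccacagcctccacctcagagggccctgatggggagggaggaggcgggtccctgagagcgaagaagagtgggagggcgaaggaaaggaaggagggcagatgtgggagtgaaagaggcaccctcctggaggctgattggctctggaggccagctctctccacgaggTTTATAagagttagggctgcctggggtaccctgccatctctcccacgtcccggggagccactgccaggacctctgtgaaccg
The NFAT letters were present at 2 places in the Ccl1 window and at 1 place in the Lgals7 window, and they occur in 23.4% of all 32851 promoter windows. The TATA box letters were present in the Tnfsf11 window and occur in 13.6% of windows. AP-1 letters occur in 7.81% of all windows, GATA in 11.2%, RUNX in 16.8% and kappaB in 1.63%. The Igfbp7 window was rich in CpG, with 33 CpG dinucleotides, against 7 in Ccl1, 5 in Lgals7, 7 in Tnfsf11 and a median of 7 over all windows. No motif of the 6 was shared by all 4 windows.

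The receptor genes were examined first. Trdc had 0 UMIs in all 13 cKO and all 218 WT members, a limit of 14.2 CPM and 23.1% of cells in cKO and of 0.799 CPM and 1.38% of cells in WT by a floor of 3 counts; the shares limit cells with a Trdc UMI, not cells that make the transcript. Over the 14 gamma-delta genes listed, cKO members held no UMI and WT members 0.80 CPM in all, against 25.1 CPM in cKO Igfbp7=0 cells and 5.11 CPM in WT ones. Trac was found in 100% of cKO members and 99.5% of WT members, against 97.5% and 99.1% of Igfbp7=0 cells in cKO and WT. Cd4, the co-receptor of helper T cells and Tregs, was found in 92.3% of cKO and 90.4% of WT members. The proposed gamma-delta marker Trdc was thus not detected, and the members carried transcripts of the alpha-beta receptor. Cells with Trdc were also few among Igfbp7=0 cells, 32 of 3029 in cKO and 10 of 2915 in WT. The count of 0 cells alone therefore does not set members apart from them.

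Markers of the vessel and stromal cells that usually make Igfbp7 were at or near 0, apart from Pecam1. Of 11 endothelial genes, 8 had no UMI in cKO members and 6 none in WT members. Cdh5, Emcn, Cldn5, Tie1, Tek and Plvap, which define endothelium, had 0 UMIs in members of both libraries. Pecam1, an adhesion molecule also made by leukocytes, was the highest of the list, at 19.0 CPM in cKO members and 45.0 in WT members against 19.9 and 36.7 CPM in the Igfbp7=0 cells of cKO and WT. Kdr was at 9.50 CPM in cKO members and 0.27 in WT members, and Egfl7 at 4.75 and 1.07 CPM. Those cKO values lie below the floor of 14.2 CPM. Summed over the 11 genes, members held 33.2 CPM in cKO and 46.9 in WT, against 22.1 and 38.8 CPM in the Igfbp7=0 cells. Of 9 pericyte and smooth muscle genes, 9 had no UMI in cKO members and 8 none in WT members, and of 8 fibroblast genes 8 and 6 had none. Summed over each list, WT members held 0.80 CPM of pericyte and 6.39 of fibroblast genes, against 0.998 and 4.68 in WT Igfbp7=0 cells. In cKO the Igfbp7=0 cells held 1.59 and 3.62 CPM, below the floor of 14.2 CPM in cKO members. The cKO zeros thus cannot separate members from Igfbp7=0 cells, and the collagen limit of the rule already selected against fibroblasts. In the IGF system, Igfbp1, Igfbp2, Igfbp3, Igfbp4 and Igfbp5 had no UMI in any member, and neither did Igf1 or Cd93, a surface protein described as an Igfbp7 receptor on endothelium. Igf2r, the mannose-6-phosphate receptor that also clears IGF2, was at 28.5 CPM in cKO members and 39.1 in WT members, against 28.1 and 27.7 CPM in Igfbp7=0 cells of cKO and WT. The signalling receptor Igf1r was at 9.50 and 5.06 CPM in cKO and WT members, against 18.3 and 10.9 CPM in the Igfbp7=0 cells. Irs2, an adaptor of insulin and IGF receptors, was, apart from Igfbp7, the only IGF system gene above the level filter of 50 CPM in WT, at 57.0 CPM in members and 64.1 in Igfbp7=0 cells.

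Transcripts of Treg identity genes were present in the members. Foxp3, the lineage factor of Tregs, was at 33.2 CPM in cKO members and 56.7 in cKO Igfbp7=0 cells, and at 31.4 CPM in WT members and 37.9 in WT Igfbp7=0 cells. The share of cells with a Foxp3 UMI depended on depth. Thinned to 4000 UMIs it was 12.0% in WT members (8.02 to 17.1%) and 16.1% in WT Igfbp7=0 cells (14.8 to 17.5%); unthinned it was 40.4% in members and 29.9% in Igfbp7=0 cells. Il2ra, the high-affinity IL-2 receptor chain, was at 452 CPM in WT members and 447 in WT Igfbp7=0 cells, and Ctla4, an inhibitory receptor, at 1316 and 1178 CPM. In cKO, Il2ra was at 323 CPM in members and 565 in Igfbp7=0 cells, and Ctla4 at 1330 and 1946 CPM. Against depth-matched cells the log2 ratio (of CPM + 5) of Foxp3 was -0.067 in cKO and 0.12 in WT, that of Il2ra -0.64 and 0.16, and that of Ctla4 -0.12 and 0.28. The lower Foxp3 level of members was thus not present at matched depth, although the thinned share in WT was lower in members, with overlapping intervals. In cKO the Foxp3 ratio rests on 7 member UMIs in 3 cells.

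Ikzf2 and Ikzf4, which encode the Ikaros-family factors Helios and Eos, were lower in members of both libraries. Ikzf2 was at 427 CPM in cKO members against 1243 in cKO Igfbp7=0 cells, a ratio of 0.34 (0.28 to 0.42). In WT it was at 847 CPM in members against 1440 in Igfbp7=0 cells, a ratio of 0.59 (0.57 to 0.61). Against depth-matched cells the log2 ratio of Ikzf2 was -1.07 in cKO and -0.55 in WT, and that of Ikzf4 -1.10 and -0.51, so the direction was the same at matched depth. Lrrc32, which displays latent TGF-beta on Tregs, was at 19.0 CPM in cKO members against 109.8 in cKO Igfbp7=0 cells and at 44.2 CPM in WT members against 81.9 in WT Igfbp7=0 cells. In cKO, 8 of 13 members held an Ikzf2 UMI, and 1 cell held 58.9% of those UMIs.

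Tmem176a and Tmem176b were higher in members, in a minority of cells. Tmem176a was at 67.1 CPM in WT members (59.1 to 75.9) against 17.1 in WT Igfbp7=0 cells, a ratio of 3.93 (3.38 to 4.58). Tmem176b was at 69.2 CPM in WT members (61.1 to 78.2) against 19.4, a ratio of 3.58 (3.08 to 4.14). At matched depth the log2 ratios were 0.47 in cKO and 2.10 in WT for Tmem176a, and 0.94 and 2.03 for Tmem176b. In cKO, Tmem176b was at 61.7 CPM in members against 17.5 in Igfbp7=0 cells, a ratio of 3.53 (1.87 to 6.11) that rests on 13 UMIs in 3 cells. Of these 13 UMIs, 4 were in a cell that also held 168 UMIs of Il1b, a cytokine of inflammatory myeloid cells. Tmem176a was at 33.2 CPM in cKO members against 14.5, a ratio of 2.30 whose interval of 0.92 to 4.79 holds 1.

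Thinned to 4000 UMIs, Tmem176b was found in 15.7% of WT members (11.2 to 21.3%) and 4.40% of WT Igfbp7=0 cells (3.67 to 5.22%), and Tmem176a in 12.5% and 4.11%. Neither gene is specific to T cells here, as 28.3% of thinned WT myeloid cells held Tmem176b. The genes lie head to head and overlap in a shared stretch of chromosome 6, Tmem176b at 48833818 to 48841496 on the minus strand and Tmem176a at 48840919 to 48847071 on the plus strand (mm10). Whether the counting used strand is not given in the sources used here, so reads in the shared stretch cannot be assigned with certainty. Of the MS4A genes measured, Ms4a4b was lower in WT members, at 102.8 CPM against 227 in WT Igfbp7=0 cells, and Ms4a6b was at 170 against 221 CPM.

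Il10 and Maf, the cytokine and the transcription factor that drives it in several T cell types, gave no uniform shift. Il10 was at 23.2 CPM in WT members and 23.3 in WT Igfbp7=0 cells, and Maf at 587 and 544 CPM. In cKO, Il10 was at 33.2 CPM in members and 91.1 in Igfbp7=0 cells, but 6 of the 7 member UMIs were in 1 cell, and at matched depth the log2 ratio changed sign to 0.33. Maf was at 418 CPM in cKO members and 855 in cKO Igfbp7=0 cells. At matched depth the log2 ratio of Maf was -0.41 in cKO and 0.49 in WT, and that of Il10 in WT was 0.63.

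**Figure D2:**
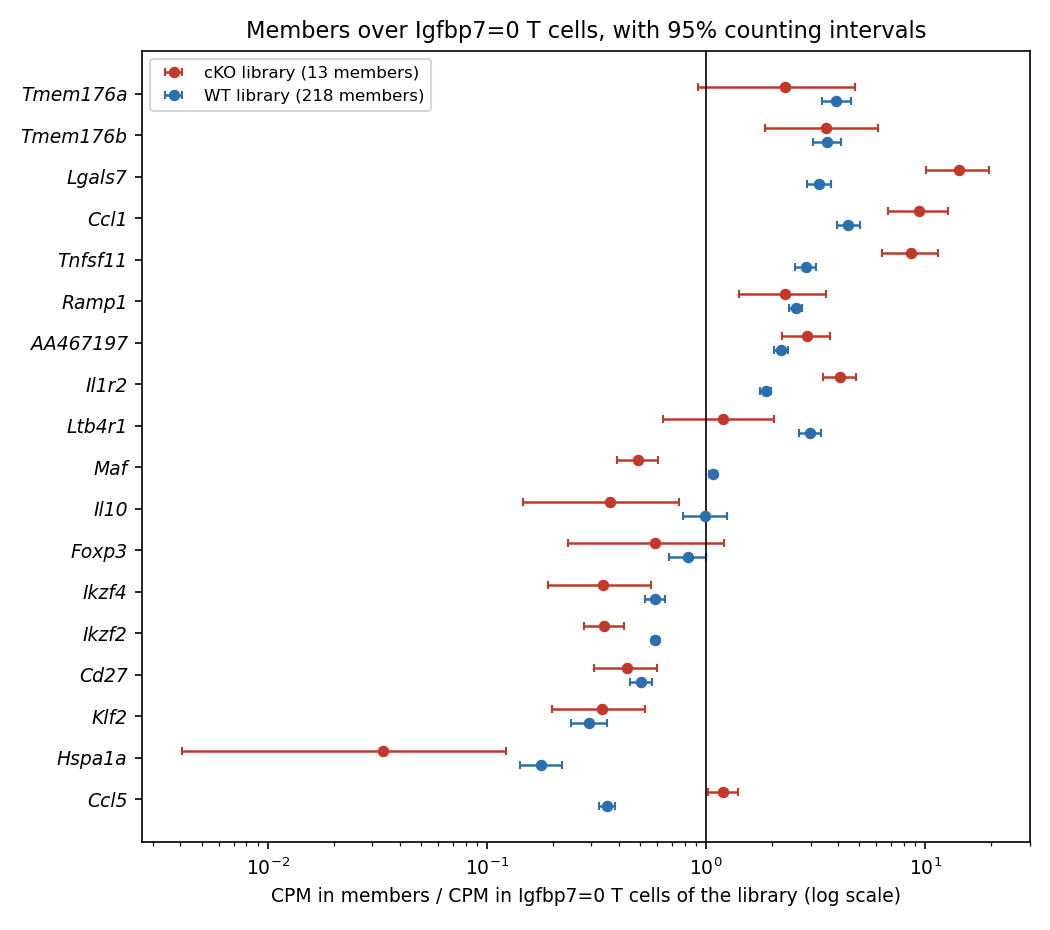
Ratio of CPM in members to CPM in Igfbp7=0 T cells of the same library (log axis) for 18 genes, with cKO (red) above WT (blue) for each gene and bars giving 95% counting intervals. Tmem176b, Lgals7, Ccl1, Tnfsf11, Ramp1, AA467197 and Il1r2 lie right of the line at 1 in both libraries, and Ikzf4, Ikzf2, Cd27, Klf2 and Hspa1a lie left of it in both; Ccl5 lies on opposite sides.

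Genes were counted where their mean over the classes compared reached 50 CPM. In WT, 12 of 2698 (0.445%) were at least 2-fold higher in members than in Igfbp7=0 cells and 7 (0.259%) at least 2-fold lower. In cKO, where 13 cells gave 210563 UMIs, 72 of 2695 genes (2.67%) were at least 2-fold higher and 138 (5.12%) at least 2-fold lower. The median log2 ratio over these genes was -0.03 in cKO and 0.02 in WT. Of 2440 genes measured in both libraries, 8 were at least 2-fold higher in members of both. These were Igfbp7, which the rule selected, and Ramp1, AA467197, Lgals7, Ccl1, Tnfsf11, Hist1h2ap and Hist1h2ae. Klf2 and Hspa1a were at least 2-fold lower in both.

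Ramp1 encodes a subunit of the receptor for the neuropeptide CGRP. It was at 99.7 CPM in cKO members against 43.3 in cKO Igfbp7=0 cells, with 21 UMIs in 9 of 13 members. In WT it was at 297 CPM in members against 116 in Igfbp7=0 cells, a ratio of 2.56 (2.40 to 2.74), with UMIs in 182 of 218 members. Thinned, 57.9% of WT members (51.0 to 64.5%) and 31.0% of WT Igfbp7=0 cells held a Ramp1 UMI. Calca, whose products include the CGRP peptide itself, was at 29.0 CPM in WT members against 72.7 in WT Igfbp7=0 cells, although 49.5% of the member UMIs were in 1 cell and the log2 ratio was -0.51 at matched depth.

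Tnfsf11 encodes RANKL, a TNF-family ligand of osteoclast and dendritic cell differentiation. It was at 242 CPM in cKO members (180 to 318) against 28.1 in cKO Igfbp7=0 cells, a ratio of 8.63 (6.36 to 11.5). In WT it was at 108 CPM in members (97.9 to 119) against 37.9, a ratio of 2.85 (2.54 to 3.19). UMIs were found in 12 of 13 cKO members and 108 of 218 WT members, and thinned shares were 53.8% and 24.1%, against 6.83% and 11.0% of Igfbp7=0 cells in cKO and WT. Tnfsf11 was thus spread over most cKO members, as were 2 other genes of the shared set, AA467197 (12 of 13) and Ramp1 (9 of 13). Ccl1 was found in 7 cKO members and Lgals7 in 5.

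Lgals7 encodes galectin-7, a lectin best known from stratified epithelia. It was at 199 CPM in cKO members against 14.0 in cKO Igfbp7=0 cells, with all 42 UMIs in 5 cells. The cKO cell with 168 UMIs of Il1b held 17 of these 42. In WT it was at 91.6 CPM in members against 27.8, a ratio of 3.29 (2.90 to 3.73), with UMIs in 81 of 218 members. Ccl1, a chemokine ligand of Ccr8, was at 218 CPM in cKO members against 23.3 in cKO Igfbp7=0 cells and at 106.5 CPM in WT members against 23.9 in WT Igfbp7=0 cells. Ccl1 was concentrated: 1 cell held 73.9% of its UMIs in cKO members and 1 cell held 39.0% in WT members. AA467197, which encodes the small mitochondrial protein known as NMES1 or C15orf48 in human, was found in 12 of 13 cKO members and was at 318 CPM against 110.5. In WT it was at 231 CPM in members against 105 in Igfbp7=0 cells.

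Against depth-matched cells the log2 ratio was 3.81 in cKO and 1.91 in WT for Lgals7, 2.66 and 1.70 for Tnfsf11, 0.97 and 1.44 for Ramp1, 1.33 and 1.84 for Ccl1, and 1.58 and 1.15 for AA467197. All 5 genes were thus higher at matched depth in both libraries. For Ccl1 in cKO, 34 of the 46 member UMIs were in 1 cell, and a matched ratio without that cell was not calculated. The cKO value of Ccl1 therefore does not show a difference across the members.

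The replication histone genes Hist1h2ap and Hist1h2ae belonged to this shared set only before depth was matched. Hist1h2ap was at 176 CPM in cKO members against 82.6 in cKO Igfbp7=0 cells and at 194 CPM in WT members against 94.2 in WT Igfbp7=0 cells. Its log2 ratio against depth-matched cells was 0.18 in cKO and 0.19 in WT, and Hist1h2ae gave 0.52 and 0.38. They are copies of a multigene family, so reads may be split between near-identical members.

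Il1r2, the decoy receptor of IL-1, was found in 13 of 13 cKO members and 173 of 218 WT members. It was at 646 CPM in cKO members against 159 in cKO Igfbp7=0 cells, a ratio of 4.07 (3.41 to 4.84). In WT it was at 343 CPM in members against 184 in Igfbp7=0 cells, a ratio of 1.87 (1.76 to 1.99). Ltb4r1, a receptor of leukotriene B4, was at 106 CPM in WT members against 35.5 in WT Igfbp7=0 cells, a ratio of 2.99 (2.67 to 3.36). In cKO it was at 61.7 CPM in members against 51.6, with an interval of the ratio (0.64 to 2.05) that holds 1.

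Other genes high in WT members were Spp1, which encodes osteopontin, at 142 CPM against 60.1 with 25.7% of the UMIs in 1 cell, and Ckb, brain-type creatine kinase, at 94.5 CPM against 39.9. Neither was higher in cKO, where Spp1 was at 47.5 CPM in members against 54.8 and Ckb at 28.5 against 51.8; at matched depth the log2 ratio of Spp1 in cKO was -2.66. In cKO the highest ratios after Igfbp7 included Nrgn, a calmodulin-binding protein best known from neurons, at 176 CPM against 4.56, with 73.0% of its UMIs in 1 cell. Ece1, a membrane metalloprotease that processes endothelin, was at 138 CPM against 16.5 in cKO and was spread over 12 of 13 members, with at most 4 UMIs in a cell. Nmrk1, a nicotinamide riboside kinase, was at 180 CPM against 26.0 with UMIs in 9 of 13 members, and Serpinb1a, a leukocyte serpin, at 142.5 CPM against 23.5 with UMIs in 7. In WT, Ece1 was at 54.1 CPM in members against 33.5 in Igfbp7=0 cells, Nmrk1 at 63.4 against 50.04, and Serpinb1a at 0.80 against 7.20.

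Cxcl16 and Spi1 also ranked high in cKO, at 204 CPM against 25.05 and at 119 CPM against 20.2. All their UMIs were in 2 cells. One of these held 61 UMIs of Fscn1 and 37 of Ccl22, genes of mature dendritic cells, and the other held 168 UMIs of Il1b, a cytokine of inflammatory myeloid cells. Without barcodes with 10 or more UMIs of these 3 genes the log2 ratios turned to -0.90 for Cxcl16 and -0.77 for Spi1. Such barcodes made up 2 of 13 cKO members and 4 of 218 WT members, against 54 of 3029 and 49 of 2915 Igfbp7=0 cells in cKO and WT.

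Several genes were lower in members. Klf2, a factor of quiescence and tissue exit, was at 85.5 CPM in cKO members against 256 in cKO Igfbp7=0 cells, and at 30.4 CPM in WT members against 104 in WT Igfbp7=0 cells, a ratio of 0.29 (0.24 to 0.35). The stress chaperone gene Hspa1a was at 9.50 CPM in cKO members against 281 in cKO Igfbp7=0 cells, and at 23.2 CPM in WT members against 131 in WT Igfbp7=0 cells. Hspa1a and its near-identical copy Hspa1b can share reads. Cd27, a costimulatory receptor, was at 180.5 CPM against 414 in cKO and at 77.5 CPM against 153 in WT. The differences in Klf2 and Cd27 were smaller at matched depth: the log2 ratio of Klf2 was -0.37 in cKO and -0.70 in WT, and that of Cd27 -0.51 and -0.61, while Hspa1a gave -4.41 and -1.66. Of the genes below, the ratio of Cxcl10 in WT was -1.46 at matched depth and that of Gzmb in cKO -2.43.

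In WT, the lymphocyte chemokine Ccl5 was at 154 CPM in members against 433 in Igfbp7=0 cells, a ratio of 0.36 (0.33 to 0.39), and the interferon-induced chemokine Cxcl10 at 36.7 against 171 CPM. Ctsw, a protease of cytotoxic lymphocytes, was at 98.0 CPM in WT members against 213. In cKO, Ccl5 was at 769 CPM in members against 644, but 161 of its 162 UMIs were in 1 cell. Gzmb, the cytotoxic protease granzyme B, was at 489 CPM in cKO members against 4080 in cKO Igfbp7=0 cells, a ratio of 0.12 (0.10 to 0.15), and at 359 CPM in WT members against 526 in WT Igfbp7=0 cells. Nfkbid, Cdkn2d, Derl1, Fas and Rtp4 followed among the lowest in cKO, each with 2 or 3 UMIs in members, between 9.50 and 14.2 CPM against 87.6 to 126 CPM in Igfbp7=0 cells.

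Gene lists placed these genes in their groups. Of 8 measured interferon-response genes, 8 were below 0 in WT members, with a median log2 ratio of -0.69 and none at least 2-fold lower; in cKO 7 of 7 were below 0, with a median of -1.24 and 5 at least 2-fold lower, where 5.12% of all genes were. Isg15, a ubiquitin-like interferon product, was at 218 CPM in cKO members against 550 in cKO Igfbp7=0 cells and at 148 CPM in WT members against 253 in WT Igfbp7=0 cells. Against depth-matched cells the list median was -0.50 in cKO and -0.35 in WT. In cKO 1 of 6 measured genes of the list was then at least 2-fold lower. Among all genes 75 were, and 2695 genes had been measured before matching. The number measured at matched depth is not given here, so the shares cannot be compared exactly. The log2 ratio of Isg15 in cKO was -0.47 at matched depth. Of 11 measured proliferation genes, 11 were above 0 in WT members, with a median of 0.73; Mki67, a nuclear protein of cycling cells, was at 183 CPM against 107. At matched depth that median was -0.01, and in cKO it was 0.21 before and -0.69 after matching.

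Treg identity genes had a median log2 ratio of -0.99 over 10 measured genes in cKO and of -0.22 over 10 in WT. In cKO 5 of them were at least 2-fold lower, where 5.12% of all genes were, and in WT none, where 0.259% were. At matched depth the medians were -0.64 and 0.04, with 2 of 9 genes in cKO at least 2-fold lower. Among all genes 75 were, out of a number measured at matched depth that is not given here. Tumour effector Treg genes gave -0.94 in cKO and -0.20 in WT, and -0.31 and 0.07 at matched depth. Within that list Klrg1, an inhibitory lectin receptor, was at 42.7 CPM in cKO members against 216 in cKO Igfbp7=0 cells and at 77.0 CPM in WT members against 119 in WT Igfbp7=0 cells. Penk, which encodes proenkephalin, was higher, at 651 CPM against 283 in cKO, where 1 cell held 81.0% of the UMIs, and at 784 CPM against 524 in WT. IL-10 programme genes gave medians of -0.89 in cKO and 0.27 in WT, and -0.41 and 0.46 at matched depth. Lag3, an inhibitory receptor of that list, was at 116 CPM in WT members against 76.4 in WT Igfbp7=0 cells.

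Receptor-signal genes, induced soon after antigen receptor engagement, gave medians of -0.82 in cKO and -0.43 in WT, and -0.08 and 0.02 at matched depth. Homing receptor genes gave -0.90 and -0.14, and -0.40 and 0.00 at matched depth. TGF-beta and activin genes gave -0.36 and -0.32, and 0.06 and 0.07 at matched depth. Type 1 and cytotoxic genes gave -0.04 in cKO and -0.60 in WT, and 0.13 and -0.25 at matched depth, and general alpha-beta T cell genes -0.18 and 0.05, and 0.01 and 0.15. At matched depth 7 of these 10 medians in WT thus lay within 0.2 of 0, and those of the interferon, type 1 and IL-10 lists lay farther away.

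**Figure D3:**
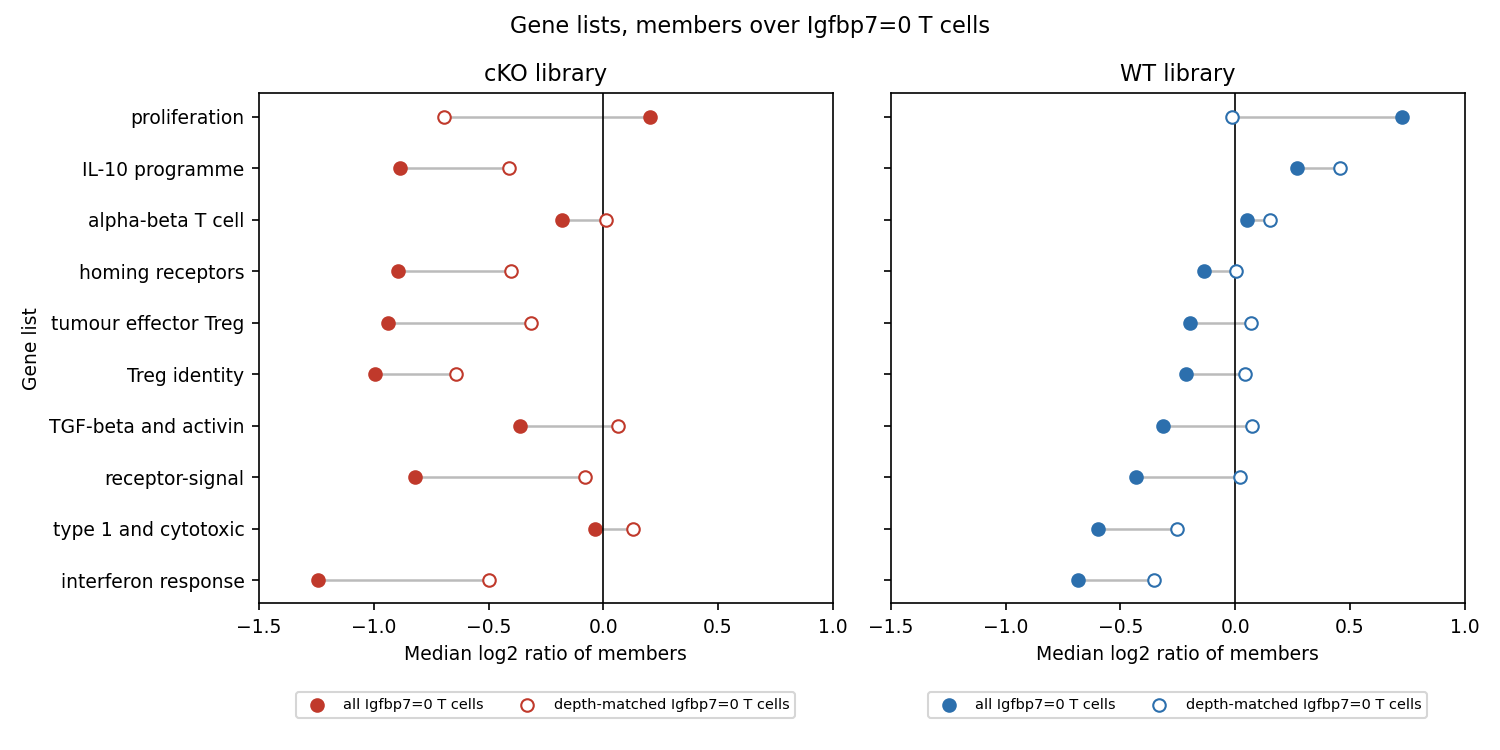
Median log2 ratio of members over Igfbp7=0 T cells for 10 gene lists in the cKO library (left) and the WT library (right); filled points use all Igfbp7=0 cells, open points the depth-matched ones. In WT the proliferation median is -0.01 and the interferon median -0.35 with matched cells, while in cKO Treg identity is at -0.64.

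To compare Igfbp7 levels at equal depth, WT T cells with at least 4000 UMIs were thinned to 4000 and grouped by the Igfbp7 UMIs that were left: 2977 cells with 0, 141 with 1, 40 with 2 and 50 with 3 or more. Their median depths before thinning were 8568, 9346, 9580 and 9866 UMIs. Ikzf2 was at 1577 CPM in the class at 0, 1152 at 1, 594 at 2 and 660 at 3 or more. Lgals7 was at 30.7, 56.7, 87.5 and 340 CPM in the same order, Tmem176b at 19.1, 58.5, 144 and 205 CPM, and Ramp1 at 121, 356, 488 and 525 CPM. Maf was at 651, 770, 1306 and 1170 CPM. Between all WT members and Igfbp7=0 cells Maf barely differed before depth was matched, and its log2 ratio was 0.49 at matched depth. At equal depth the levels of Lgals7, Tmem176b and Ramp1 were thus higher with 3 or more Igfbp7 UMIs than with 0 or 1 by more than the counting error. The intervals of some neighbouring classes overlapped. For Maf and Ikzf2 the largest step between neighbouring classes was from 1 to 2 UMIs. Both also differed between 0 and 1 by more than the counting error. Ikzf2 fell from 1577 CPM (1555 to 1600) to 1152 (1066 to 1245), and Maf rose from 651 (637 to 666) to 770 (699 to 845). Shares of cells with a UMI at 1, 2 and 3 or more were 65.2, 65 and 66% for Ramp1, 9.93, 25 and 28% for Lgals7 and 8.51, 25 and 32% for Tmem176b.

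In the 50 cells with 3 or more Igfbp7 UMIs, Ccl5 and Klf2 had 0 UMIs, a limit of 15 CPM by the floor of 3 counts, against 435 CPM of Ccl5 and 140 CPM of Klf2 in cells with 0 Igfbp7 UMIs. Cd27 was at 15 CPM (3.09 to 43.8), or 3 UMIs, against 180 CPM. Hspa1a, lower in members as a whole, was not lower in these cells, at 150 CPM (101 to 214) against 166 CPM (158 to 173). It was at 149 CPM in the class at 1 and at 6.25 CPM, or 1 UMI, in the class at 2. Foxp3 was at 30 CPM in the cells with 3 or more and 46.5 CPM at 0, and Cd4 at 280 and 187 CPM. Trbc1 was at 1670 CPM in the cells with 3 or more (1496 to 1859) and 665 at 0, whereas Trbc2 was at 670 and 1045 CPM and Trac at 1030 and 1128 CPM.

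**Figure D4:**
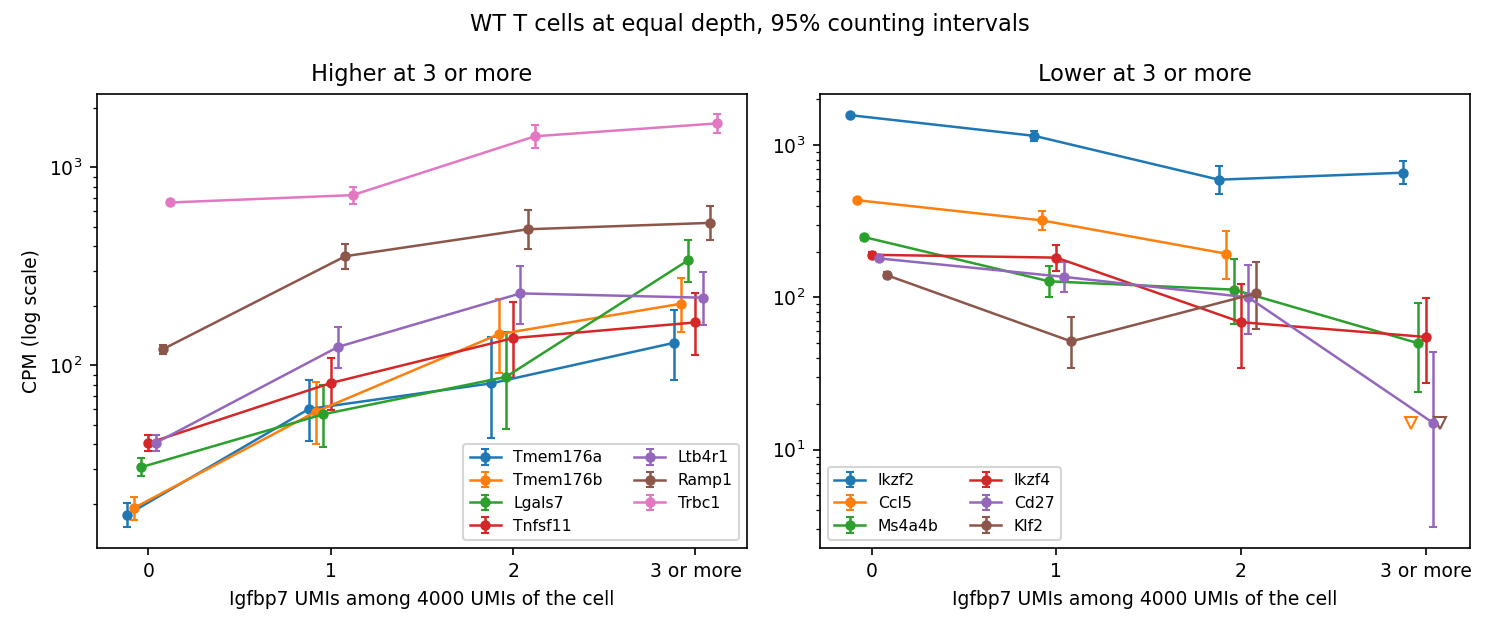
CPM (log axis) in WT T cells thinned to 4000 UMIs, by the number of Igfbp7 UMIs left in the cell (0, 1, 2, 3 or more), with 95% counting intervals; open triangles mark the limit of 15 CPM where no UMI was found. Lgals7 is at 30.7 CPM at 0 and 340 at 3 or more, Trbc1 at 665 and 1670, and Ikzf2 at 1577 and 660.

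An alpha-beta T cell builds its beta chain with either the Trbc1 or the Trbc2 constant region, so the more abundant of these transcripts divides cells by the receptor they carry. The 2 genes are near-identical copies and reads can be misassigned between them. Trbc1 exceeded Trbc2 in 7 of 13 cKO members (53.8%, 25.1 to 80.8%) and in 25.5% of cKO Igfbp7=0 cells. In WT it did so in 120 of 218 members (55.0%, 48.2 to 61.8%), in 68 of 198 cells with 1 Igfbp7 UMI (34.3%, 27.8 to 41.4%) and in 890 of 2915 Igfbp7=0 cells (30.5%, 28.9 to 32.2%). WT members were thus richer in Trbc1 cells than the T cells around them by more than the counting error.

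The 120 Trbc1 members (median 11076 UMIs) and the 95 Trbc2 members (median 14881 UMIs) of WT differed from each other more than the matching Igfbp7=0 cells did. Tmem176b was at 125 CPM in Trbc1 members (109 to 141) and 9.55 in Trbc2 members (5.56 to 15.3), against 24.3 and 16.1 CPM in Trbc1 and Trbc2 Igfbp7=0 cells. Il10 was at 42.9 CPM in Trbc1 members (34.2 to 53.2) and 1.69 in Trbc2 members (0.35 to 4.93), against 32.4 and 18.5 CPM. Maf was at 842 and 299 CPM in these members, against 548 and 538 CPM in the Igfbp7=0 cells. Before depth was matched, the near-equal Il10 and Maf levels of WT members and Igfbp7=0 cells thus combined 2 groups. The Trbc1 group was above the Igfbp7=0 level and the Trbc2 group below it. For Il10 the interval of Trbc1 Igfbp7=0 cells (29.0 to 36.0) overlapped that of Trbc1 members. The split was not repeated at matched depth, where WT members as a whole had log2 ratios of 0.63 for Il10 and 0.49 for Maf.

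Ltb4r1 was at 161 CPM in Trbc1 members and 46.1 in Trbc2 members, against 40.9 and 31.4 CPM in the Igfbp7=0 cells, and Ckb at 154.5 and 30.9 CPM, against 43.2 and 38.0. Ikzf2 was at 593 and 1132 CPM in Trbc1 and Trbc2 members, against 1339 and 1487 CPM. Ramp1, by contrast, was at 305 CPM in Trbc1 members and 289 in Trbc2 members, against 120 and 113 CPM in the Igfbp7=0 cells, so in WT it was higher in members whichever beta chain they carried. In cKO, Ramp1 was at 232 CPM in 7 Trbc1 members (127 to 389) and 46.6 in 6 Trbc2 members (18.7 to 96.0), against 48.7 and 41.7 CPM in the Igfbp7=0 cells.

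Tmem176 transcripts overlapped with this split in part. At least 2 UMIs of Tmem176a and Tmem176b together were found in 52 of 218 WT members (23.9%, 18.4 to 30.1%) and in 5.87% of WT Igfbp7=0 cells, and in 3 of 13 cKO members against 4.16% of cKO Igfbp7=0 cells. The cell with 168 UMIs of Il1b was among these 3 cKO members. Trbc1 exceeded Trbc2 in 43 of those 52 WT members (82.7%, 69.7 to 91.8%) and in 77 of the other 166 (46.4%, 38.6 to 54.3%). The 52 cells had 364 CPM of Ikzf2, 717 of Maf and 151 of Lgals7, and the 149 members without a Tmem176 UMI had 1094, 484 and 58.4 CPM.

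**Figure D5:**
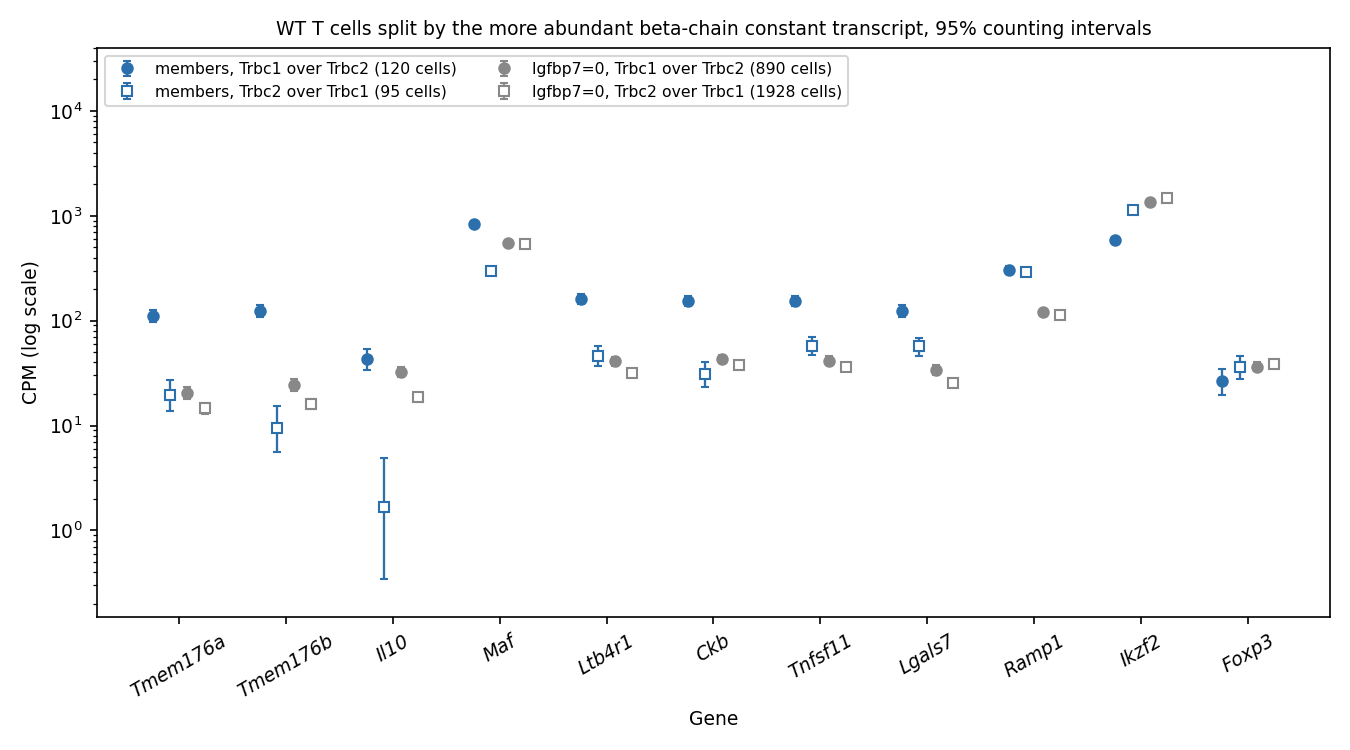
CPM (log axis) of 11 genes in WT T cells split by which of Trbc1 and Trbc2 had more UMIs in the cell, for members (blue) and Igfbp7=0 cells (grey), with 95% counting intervals. Tmem176a, Tmem176b, Il10, Maf, Ltb4r1 and Ckb separate Trbc1 members (filled circles) from Trbc2 members (open squares) more widely than the grey pairs, and Ramp1 does not.

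The receptor V segments Trav13-1, Trbv3 and Trav6-7-dv9 were looked at in members after their values had been seen, and no screen over all V segments was made. Trav13-1 was found in 30 of 218 WT members (13.8%, 9.48 to 19.1%) and 1.23% of WT Igfbp7=0 cells (0.87 to 1.71%). Trbv3 was found in 28 members (12.8%, 8.71 to 18.0%) and 2.85% of Igfbp7=0 cells, and Trav6-7-dv9 in 28 members and 2.13%. Thinned to 4000 UMIs the shares were 4.63% and 0.61% for Trav13-1, 3.70% and 1.07% for Trbv3, and 6.48% and 0.96% for Trav6-7-dv9, in members and Igfbp7=0 cells. Trbv3 and Trav13-1 were found together in 10 members, all with Trbc1 above Trbc2, and in 3 of 2915 Igfbp7=0 cells. Of the 30 members with Trav13-1, 28 had Trbc1 above Trbc2. Trav segments occur as near-identical copies, and a 3′ library reads V segments only partly, so receptor clones were not called. Neither Trav13-1 nor Trbv3 was found in the 13 cKO members, where 2 cells held Trav6-7-dv9.

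Members of the 2 libraries could also be set side by side, with the Igfbp7=0 cells as background. Between cKO and WT members, 80 of 2660 genes (3.01%) were at least 2-fold higher in cKO and 75 (2.82%) at least 2-fold lower. Between cKO and WT Igfbp7=0 cells, 48 of 2728 (1.76%) were at least 2-fold higher and 33 (1.21%) lower. Gzmb, 7.76 times as high in cKO as in WT among Igfbp7=0 cells, was at 489 CPM in cKO members and 359 in WT members, a ratio of 1.36 (1.11 to 1.67). In WT members 31.3% of the Gzmb UMIs were in 1 cell, and with a minimum of 1 Igfbp7 UMI the log2 ratio of cKO over WT was 2.10, against 0.44 with the minimum of 2. Pdcd1, the PD-1 receptor, was at 513 CPM in cKO members and 400 in WT members, although it was at 185 CPM in cKO and 460 in WT Igfbp7=0 cells. Pdcd1 was found in 12 of 13 cKO members. With a minimum of 1 Igfbp7 UMI the log2 ratio of Pdcd1 between cKO and WT members turned to -0.11.

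Ramp1 and Ms4a4b differed between the libraries in the same direction in members and in Igfbp7=0 cells. Ramp1 was 0.34 times as high in cKO as in WT members (0.21 to 0.52) and 0.37 times among Igfbp7=0 cells. Ms4a4b was at 437 CPM in cKO and 103 in WT members, a ratio of 4.25 (3.35 to 5.35), with 2.87 among Igfbp7=0 cells. Tnfsf11 and Lgals7 differed in opposite directions. Tnfsf11 was 2.24 times as high in cKO as in WT members (1.64 to 3.003), against 0.74 among Igfbp7=0 cells, and Lgals7 2.18 times (1.54 to 3.01), against 0.50. The direction of Lgals7 turned with a minimum of 5 Igfbp7 UMIs, where the log2 ratio was -0.59. Of the genes described here, Serpinb1a had the largest ratio between cKO and WT members, with 30 UMIs in 7 of 13 cKO members and 3 UMIs in 2 of 218 WT members. All values of cKO members rest on 13 cells, and in Lgals7 on 5 of them.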

How the data were processed

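Tregs from tumours of 1 cKO and 1 WT library were profiled by 10x Genomics 3′ RNA sequencing. The deposited values are UMI counts per gene and barcode, made by the authors with Cell Ranger 5.0.1 on mm10, per the submitters' processing notes; the strand setting used in counting is not given in the sources used here. Barcodes with at least 500 genes and under 10% mitochondrial UMIs were kept, and members were chosen by the UMI limits given above. Counts were summed per class and library and scaled to CPM (a total of 1e6). Log2 ratios used CPM + 5, genes needed a mean of 50 CPM, and a ratio of at least 2-fold was counted as higher or lower. Shares of cells were compared after thinning to 4000 UMIs (seed 1), with shallower cells left out; 0 of 13 cKO and 2 of 218 WT members were shallower, against 409 and 117 Igfbp7=0 cells in cKO and WT. Scrublet marked 2 of 4026 cKO barcodes (0.0497%) and 2 of 3842 WT barcodes (0.0521%), too few to have worked, so no doublets were removed. Tools were Python 3.11.15, numpy 2.4.6, scipy 1.17.1, pandas 2.3.3, scanpy 1.11.5 and matplotlib 3.10.9; the summing and ratios were tested on simulated data.

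The members and gene lists were chosen with earlier results of these data known. Named genes were the 15 highest and 15 lowest ratios in WT and the 10 highest and 10 lowest in cKO with a UMI in at least 10% of cells of a class, without mitochondrial, ribosomal, receptor-segment, predicted and sex-linked genes, plus the genes of the rule, Il10, Maf, leading genes of each list and the IGF system; the text gives those that describe the members best. Alternatives changed the Igfbp7 minimum, the barcode filters, the pseudocount, the gene filter and the thinning. An Igfbp7 minimum of 5, leaving out barcodes with at least 10 UMIs of Fscn1, Ccl22 and Il1b, and the comparison of gene lists with depth-matched cells were added after seeing the data, as were the receptor and V segment splits.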

Additional observations from a re-analysis of the deposited data

Results flagged for a closer look

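Ccl4, a chemokine of activated lymphocytes, was the only gene of the 2440 measured in both libraries that was at least 2-fold lower in members of one library and at least 2-fold higher in members of the other. Its log2 ratio of members over Igfbp7=0 T cells was -2.81 in cKO and 1.18 in WT. Few cells carried these values: cKO members held 4 UMIs, 3 of them in 1 cell, and in WT 18 of 218 members held Ccl4, with 39.7% of the UMIs in 1 cell and 90.2% in 5 cells. The difference between the libraries was not tested, since there is 1 library per genotype.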

How the results depend on the processing

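No paired analysis was possible because each genotype has 1 library. Of 1517 gene ratios over 14 alternatives, 1094 stayed within their counting error or within 0.1 of the main value and 80 had the other sign, 20 of them for a ratio of at least 2-fold. In WT the ratios of Tmem176a, Tmem176b, Lgals7, Ramp1, Tnfsf11, Ccl1, Ltb4r1, Klf2, Ccl5 and Cxcl10 kept their sign in 14 of 14 alternatives. Values of cKO members rest on 13 cells; the causes of the changes below were not tested.

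Members were 1.08% of cKO and 12.5% of WT T cells with at least 1 Igfbp7 UMI, 4.41% of WT with at least 3, 0.163% and 2.19% with at least 5, and 5.08% of WT without proliferating cells. Genes at least 2-fold higher and lower in cKO members numbered 40 and 43 with at least 1 UMI, 232 and 314 with at least 5, 170 and 328 with a 20 CPM filter, and 420 and 1195 with none; 116 were higher without the highest 5% of UMIs and 75 lower at matched depth. In WT, 5 were higher with at least 1 UMI, 24 lower with at least 3, 36 higher and 32 lower with at least 5, 19 and 13 by the mean of single-cell CPM, and 31 and 28 with no filter; 12 were lower with the 20 CPM filter and 4 at matched depth. Between cKO and WT members, 293 were higher and 300 lower with at least 5 UMIs, 126 and 154 without the highest UMIs, 189 and 274 with the 20 CPM filter, and 462 and 1277 with none. There, 42 were lower with at least 1 UMI and also 42 with a pseudocount of 20 CPM, 114 without proliferating cells, and 116 by the mean of single-cell CPM. The number of genes measured in each alternative is not given here, so these counts cannot be read as shares.

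With at least 5 Igfbp7 UMIs the log2 ratio in cKO was 0.50 for Il10, -3.18 for Hist1h2ae, -4.13 for Hist1h2ap, -2.59 for Cxcl16 and -2.33 for Spi1, and cKO over WT members gave -4.52 for Ccl5 and -0.59 for Lgals7. Il10 in cKO was at 0.055 with at least 1 UMI and 0.33 at matched depth. Without the highest 5% of UMIs Hist1h2ae was at -2.63, Hist1h2ap at -3.55, Cxcl16 at -2.12 and Spi1 at -1.86 in cKO, and Ccl5 at -3.83 between members. Without proliferating cells Hist1h2ae was at -1.30 and Hist1h2ap at -1.23 in cKO, and Hist1h2ap at -0.067 in WT. Without barcodes with Fscn1, Ccl22 or Il1b, Cxcl16 was at -0.90 and Spi1 at -0.77 in cKO, and Ccl5 at -3.77 between members.

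With the 20 CPM filter the type 1 and cytotoxic median was 0.26 in cKO and 0.51 in WT, the resting T cell median -0.53 and the receptor-signal median -0.57 in cKO. At matched depth the medians in cKO and WT were -0.64 and 0.041 for Treg identity, -0.31 and 0.068 for tumour effector Treg, 0.063 and 0.073 for TGF-beta, -0.079 and 0.021 for receptor-signal, -0.50 and -0.35 for interferon and -0.69 and -0.014 for proliferation genes. They were -0.41 for IL-10 programme, 0.26 for resting T cell and -0.40 for homing genes in cKO, and -0.25 for type 1 genes in WT. Thinned to 3000 UMIs, 0% of cKO members held Foxp3 and 70.2% of WT members Ikzf2. Without thinning, the shares of WT members were 40.4% for Foxp3, 25.2% for Tmem176b, 37.2% for Lgals7, 87.2% for Ikzf2 and 73.4% for Trbc1.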
